A study of Mus musculus with 12 samples.

Results

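A set of 37 genes for homologous recombination, Fanconi interstrand crosslink repair, mismatch repair and the checkpoint kinases that act with them was followed in mouse liver and in RAW264.7 cells. Members were the rows of both count tables whose identifiers mapped to a listed symbol, and all 37 were found among 55357 identifiers. The data were 12 RNA sequencing libraries in 4 groups of 3. Livers came from male wild-type C57BL6/J mice aged 8 to 9 weeks, which received esculetin, a plant coumarin, at 90 mg/kg/d or its vehicle, 2.5% Tween-80, by gavage for 7 days. All mice, vehicle included, ate a diet with 10% kcal from fat for 4 days before 3 days at 60%. The study states that a liver sample held more than a single mouse, so a liver library is a pool. RAW264.7 is a mouse macrophage line, and every culture was held for 24 h with 25 ug/mL of dye-labelled oxidized low-density lipoprotein (oxLDL), with esculetin at 40 ug/mL or with DMSO. Nothing states whether the cell libraries came from separate experiments, so p-values there measure the spread between these libraries, which may be technical.

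Homologous recombination repairs broken DNA by copying an intact sister chromatid. BRCA1 acts with BARD1, PALB2 and BRCA2 at the resected end, and RAD51B, RAD51C, XRCC2 and XRCC3, the RAD54 motors and helicases help the broken strand pair with the template and leave it. The Fanconi core complex attaches ubiquitin to FANCD2 and FANCI where a crosslink blocks a replication fork, and MSH6 and PMS2 act in the repair of mispaired bases. ATM and ATR, with CHEK2 and CHEK1, signal the damage to the cell cycle. Many of these genes are transcribed most in dividing cells, and RAW264.7 cells divide while most hepatocytes in an adult liver do not.

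The stretches of 120 bases before the annotated start of 10 members are shown as examples of members that fell, rose or did not pass the test. All but that of Mus81 carry motif letters counted in these promoters, and none carries a CHR match. These 10 do not stand for all members. Of those not shown, the same stretch holds no match for Bard1, Blm, Fance, Fanci, Palb2 and Rad51c, which fell. It also holds none for Rtel1, which rose, or for members that did not pass, such as Atm, Chek1 and Fancl. Others not shown, such as Msh6, Pms2 and Chek2, do hold a match there. Capitals mark matches to CCAAT (the letters bound by NF-Y), TTTNNCGC (E2F), TTTGAA or TTCGAA (the CHR element of cell cycle genes) and TTGCNNAA (C/EBP), searched on both strands. Sequences are from RefSeq on GRCm38.p6, written 5′ to 3′ on the strand of the gene. Rad51b, Fanca, Rad51ap1, Brca1 and Fancg fell in the cells, Fancm and Mus81 rose, and Fancf, Brip1 and Xrcc3 did not pass the test.
Rad51b (chr12:79297162-79297281, plus strand): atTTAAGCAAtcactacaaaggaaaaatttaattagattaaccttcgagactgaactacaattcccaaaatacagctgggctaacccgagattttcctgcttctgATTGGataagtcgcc
Fanca (chr8:123318577-123318696, minus strand): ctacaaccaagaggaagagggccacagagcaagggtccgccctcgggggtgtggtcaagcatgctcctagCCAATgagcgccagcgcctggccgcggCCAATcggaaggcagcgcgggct
Rad51ap1 (chr6:126939588-126939707, minus strand): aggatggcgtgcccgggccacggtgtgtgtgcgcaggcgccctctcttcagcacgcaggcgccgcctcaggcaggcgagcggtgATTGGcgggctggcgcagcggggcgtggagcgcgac
Brca1 (chr11:101551956-101552075, minus strand): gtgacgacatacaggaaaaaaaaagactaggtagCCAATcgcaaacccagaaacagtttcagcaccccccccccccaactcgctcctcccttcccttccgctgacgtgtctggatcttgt
Fancg (chr4:43010302-43010421, minus strand): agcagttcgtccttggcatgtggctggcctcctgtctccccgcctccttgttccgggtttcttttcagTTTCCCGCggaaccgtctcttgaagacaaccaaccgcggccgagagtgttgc
Fancm (chr12:65075483-65075602, plus strand): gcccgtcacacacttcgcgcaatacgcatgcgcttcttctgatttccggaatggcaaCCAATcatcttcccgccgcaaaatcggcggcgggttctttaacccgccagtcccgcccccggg
Mus81 (chr19:5488380-5488499, minus strand): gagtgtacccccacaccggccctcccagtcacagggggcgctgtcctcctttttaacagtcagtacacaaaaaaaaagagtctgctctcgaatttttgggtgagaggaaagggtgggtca
Fancf (chr7:51862268-51862387, minus strand): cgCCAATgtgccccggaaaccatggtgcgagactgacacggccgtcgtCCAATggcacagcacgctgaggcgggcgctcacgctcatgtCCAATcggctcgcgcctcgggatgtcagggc
Brip1 (chr11:86201194-86201313, minus strand): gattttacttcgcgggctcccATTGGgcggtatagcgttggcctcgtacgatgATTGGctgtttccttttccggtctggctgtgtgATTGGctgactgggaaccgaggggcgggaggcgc
Xrcc3 (chr12:111813880-111813999, minus strand): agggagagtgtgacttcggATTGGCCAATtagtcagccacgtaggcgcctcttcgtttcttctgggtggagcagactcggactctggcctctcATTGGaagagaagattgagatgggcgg

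A promoter sequence of 300 bases was matched for 30 of the 37 members, in 33 promoters, and 7 members (Recql4, Exo1, Wrn, Xrcc2, Fancd2, Rad54b and Pif1) had no match. CCAAT was found in 21 of the 33 promoters (63.6%), against 37.4% of 32851 promoters of all genes and 38.0% of 11873 promoters of genes tested in the cells. The E2F letters were found in 9 (27.3%), against 5.17% and 8.48%. CHR letters stood in 15.2% of member promoters, against 19.2% of all and 14.3% of those of tested genes, and C/EBP letters in 9.09%, against 10.8% and 8.22%. No match overlapped a match of another motif. By change in the cells, CCAAT was found in 9 of 14 promoters of members that fell, 1 of 3 of members that rose and 11 of 16 of members that did not pass the test. For the E2F letters these counts were 5 of 14, 0 of 3 and 4 of 16. A match of letters is a description and does not show binding.

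Total counts were 13752842 to 20001959 per cell library and 14659876 to 20346460 per liver library. In the cells, summed levels of 8 hepatocyte markers were at most 1.02 CPM (counts scaled to library size, by the trimmed mean of M-values, TMM) and Alb held 0 to 2 counts, while the macrophage genes Csf1r, Adgre1 and Ptprc were expressed in every library. The summed level of 8 macrophage markers was 2476 to 2656 CPM with DMSO and 5229 to 7814 CPM with esculetin. Of the 8, 6 rose (edgeR, adjusted p under 0.05), beside 28.7% of all tested genes. Their median log2 fold change was 0.40, so the sum does not describe each marker. Ptprc did not rise, with 167 to 227 CPM with DMSO and 138 to 170 CPM with esculetin. The part of the macrophage marker levels in the results on the repair genes was not tested. In the liver, macrophage markers summed to 159 to 201 CPM with vehicle and 159 to 174 CPM with esculetin. Vehicle library 1 stood apart from the other liver libraries on the first principal component. In a bulk sample, fewer cells of a type and less RNA per cell cannot be told apart.

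The first question was which members differed between esculetin and DMSO in the oxLDL-treated cells. With esculetin 17 of the 37 members fell and 4 rose, and 16 did not pass the threshold (edgeR, adjusted p under 0.05 over all genes tested). Of all tested genes, 57.7% passed in either direction. The helicase gene Pif1 and the recombination gene Rad51b fell most, and the nuclease gene Mus81 rose most. The 17 that fell were 45.9% of the members, where 29.0% of 13277 tested genes fell, and the 4 that rose were 10.8%, where 28.7% of all rose. The median log2 fold change of the members was -0.22, and that of all tested genes was -0.01. Of the members, 17 had esculetin libraries all below and 3 all above the DMSO libraries, shares to be read beside 33.1% and 31.0% of all tested genes. The median coefficient of variation of the members was 8.49% with DMSO and 12.2% with esculetin, and it was 46.0% for Pif1 and 32.1% for Rad51b with esculetin.

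**Figure D1:**
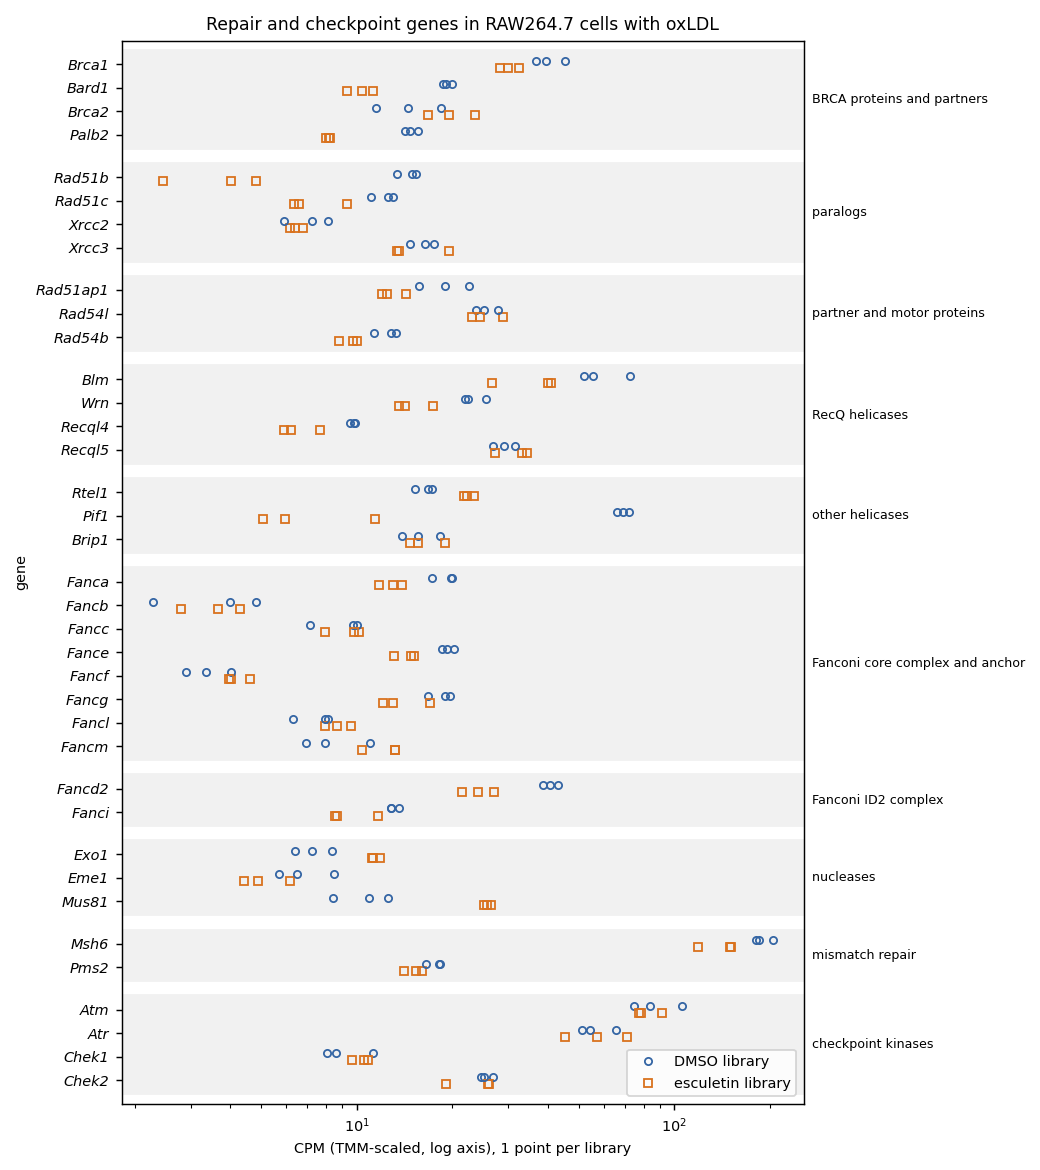
Level of each of the 37 genes in RAW264.7 cells, with CPM on a log axis and 1 point per library (circles, DMSO; squares, esculetin; 3 libraries a group), grouped by role. Pif1 and Rad51b show esculetin libraries far below the DMSO libraries, Mus81 shows them above, and the checkpoint kinases overlap.

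Levels differed widely between members in the DMSO cells, which were also held with oxLDL. Per kilobase of exon, Msh6, which recognises mismatches, was highest in the DMSO cells at 38.8 ± 2.48 CPM per kb (SD, n = 3), followed by Pif1 at 15.7 ± 0.666. Fance at 6.06 ± 0.264 and Atm at 5.92 ± 1.08 came next and did not differ beyond their spread. Blm, Fancg and Brca1 followed at 4.72 ± 0.867, 4.68 ± 0.382 and 4.61 ± 0.491 CPM per kb, also within their spread. The lowest were Fancc at 0.503 ± 0.0891, Fancb at 0.709 ± 0.248 and Xrcc2 at 0.737 ± 0.118. Exon length was that of all annotated exons of a gene together, so this order depends on the annotation. In CPM without length, Fancc at 8.98 ± 1.59 lay above Fancf at 3.43 ± 0.569.

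Of the BRCA group, 3 of 4 genes fell. Counts by role, here and below, are to be read beside 29.0% of all tested genes that fell and 28.7% that rose. Roles hold 2 to 8 genes, so nothing particular to a role is read from these counts. Bard1, the obligate partner of BRCA1 in a ubiquitin ligase, had 369, 348 and 409 counts with DMSO and 154, 152 and 167 with esculetin, so the groups did not overlap. Its level fell to 53.6% of the DMSO mean, a log2 fold change of -0.90 ± 0.12 (SE; adjusted p = 9.1e-05). Palb2, which bridges BRCA1 and BRCA2, had 14.7, 15.6 and 14.2 CPM with DMSO and 8.27, 8.18 and 8.03 CPM with esculetin. These groups also stood apart, with a log2 fold change of -0.86 ± 0.13 (adjusted p = 0.00016). Brca1 fell less, by 0.42 ± 0.11 on the log2 scale (adjusted p = 0.0074). Brca2, which acts at resected ends, had 18.4, 11.5 and 14.5 CPM with DMSO and 23.6, 19.6 and 16.7 CPM with esculetin. Its groups overlapped and its log2 fold change of 0.43 ± 0.18 did not pass (adjusted p = 0.062). It passed with DESeq2 (adjusted p = 0.034), with RLE factors (0.045), without the filter on low counts (0.036), without DMSO library 1 (adjusted p = 0.022) and without esculetin library 3 (adjusted p = 0.021). Exons of Palb2 overlap Dctn5 on the other strand, which rose by 0.23. Exons of Brca2 overlap N4bp2l1 on the other strand, which fell by 1.13 on the log2 scale, and the strand used in counting was not stated.

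RAD51B, RAD51C, XRCC2 and XRCC3 form complexes that help strands pair during recombination. Rad51b (chr12:79343212-79861464, plus strand, GRCm39) had 258, 278 and 315 counts with DMSO and 66, 59 and 44 with esculetin. Every esculetin library was below every DMSO library, and the mean fell to 25.9% of that with DMSO (log2 fold change -1.97 ± 0.21, adjusted p = 1.7e-05). Rad51c, which works in complexes with RAD51B and with XRCC3, had 12.5, 11.1 and 13.0 CPM with DMSO and 6.59, 9.34 and 6.36 CPM with esculetin. It fell by 0.72 ± 0.17 on the log2 scale (adjusted p = 0.0041). Xrcc2 and Xrcc3 gave -0.13 ± 0.18 and -0.07 ± 0.16 and did not pass. Among the partner and motor proteins, Rad51ap1, which helps capture the template, fell by 0.56 ± 0.15 (adjusted p = 0.0082) and Rad54b by 0.39 ± 0.14 (adjusted p = 0.028). The Rad51ap1 call was lost without DMSO library 2 (adjusted p = 0.054). That of Rad54b was lost with DESeq2 (adjusted p = 0.057) and without DMSO library 1 or 3 or esculetin library 2 or 3 (adjusted p = 0.084, 0.11, 0.053 and 0.068). Rad54l, the other motor, gave -0.01 ± 0.12, and its exons overlap Lrrc41 on the other strand, which fell by 0.48.

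Helicases of the RecQ family unwind recombination and replication intermediates, and 3 of 4 fell, beside 29.0% of all tested genes. Blm, mutated in Bloom syndrome, had 1401, 969 and 1138 counts with DMSO and 561, 586 and 478 with esculetin. Its groups stood apart, and it fell by 0.75 ± 0.17 on the log2 scale (adjusted p = 0.0029). Wrn, the Werner syndrome helicase, fell by 0.63 ± 0.13 (adjusted p = 0.0016), and Recql4 fell by 0.57 ± 0.16 (adjusted p = 0.0093). Exons of Recql4 overlap Mfsd3 on the other strand, which rose by 1.06. Recql5 gave 0.12 ± 0.12 and did not pass, and its exons overlap Sap30bp and Smim5 on the other strand, which rose by 0.47 and 1.54.

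Of the other helicases, Pif1 fell more than any other member. Pif1 (chr9:65494442-65503249, plus strand, GRCm39), which unwinds DNA structures such as G-quadruplexes and acts at telomeres, had 1278, 1340 and 1413 counts with DMSO and 156, 87 and 91 with esculetin. The lowest DMSO library held several times the highest esculetin library, and the mean level fell to 10.8% of that with DMSO (log2 fold change -3.23 ± 0.23, adjusted p = 8.6e-07). Rtel1, a telomere helicase, went the other way: 15.2, 16.7 and 17.3 CPM with DMSO and 22.3, 21.7 and 23.4 CPM with esculetin. Its groups did not overlap, and it rose by 0.45 ± 0.11 (adjusted p = 0.0048). Brip1, the BRCA1-associated helicase, gave 0.04 ± 0.15.

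In the Fanconi pathway both genes of the ID2 complex fell, beside 29.0% of all tested genes. Fancd2 had 743, 803 and 835 counts with DMSO and 370, 354 and 386 with esculetin, groups that did not overlap, and fell by 0.75 ± 0.11 (adjusted p = 0.00019). Fanci fell by 0.45 ± 0.15 (adjusted p = 0.025), a call lost without any DMSO library or without esculetin library 2 or 3 (adjusted p = 0.061, 0.071, 0.10, 0.10 and 0.064). Of the 8 genes of the core complex and its anchor, 3 fell, 1 rose and 4 did not pass, where 29.0% of all tested genes fell and 28.7% rose. Fanca fell by 0.56 ± 0.13 (adjusted p = 0.0027) and Fance by 0.43 ± 0.12 (adjusted p = 0.0084), both without overlap. Fancg fell by 0.40 ± 0.15 (adjusted p = 0.036) although its groups overlapped, and the call was lost without DMSO library 2 or 3 or esculetin library 2 or 3 (adjusted p = 0.14, 0.12, 0.12 and 0.10). Fancm, the motor that anchors the core complex to DNA, rose by 0.51 ± 0.19 (adjusted p = 0.036) with overlapping groups of 212, 129 and 164 counts with DMSO and 181, 194 and 187 with esculetin. The Fancm call was lost with scaling by library size only (adjusted p = 0.070) and without DMSO library 2 or 3 or esculetin library 1 or 2 (adjusted p = 0.14, 0.11, 0.072 and 0.12). Fancb, Fancc, Fancf and the ubiquitin ligase gene Fancl gave -0.04 ± 0.29, 0.05 ± 0.17, 0.30 ± 0.22 and 0.23 ± 0.16. Exons of Fanca, Fancd2, Fancc, Fancf and Fancl overlap genes on the other strand that themselves changed: Zfp276 rose by 0.88, Emc3 by 0.38 and Aopep by 1.33, and Gas2 fell by 0.88 and Vrk2 by 1.02.

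Of the 3 nucleases 2 rose, beside 28.7% of all tested genes. Mus81 (chr19:5532373-5538448, minus strand, GRCm39), which cuts branched DNA with EME1 or EME2, had 163, 203 and 258 counts with DMSO and 361, 369 and 461 with esculetin. Every esculetin library was higher, and the mean CPM was 242% of that with DMSO (log2 fold change 1.27 ± 0.15, adjusted p = 2.4e-05). Its exons overlap Efemp2 on the other strand, which rose by 0.67 ± 0.16 (adjusted p = 0.0038), and reads of the genes cannot be told apart without the strand. Exo1, which resects broken ends and removes mispaired strands, rose by 0.64 ± 0.15 (adjusted p = 0.0038) from 6.38, 7.26 and 8.37 CPM to 11.9, 11.2 and 11.2 CPM. Eme1, the partner of MUS81, gave -0.43 ± 0.21 and did not pass (adjusted p = 0.10), but passed without esculetin library 1 (adjusted p = 0.042). For mismatch repair, Msh6 had 3934, 3446 and 3723 counts with DMSO and 2041, 2206 and 2128 with esculetin and fell by 0.45 ± 0.10 (adjusted p = 0.0033). Pms2, a nuclease of mismatch repair, gave -0.22 ± 0.12 (adjusted p = 0.14), with esculetin libraries all below the DMSO libraries. Exons of Pms2 overlap Aimp2 on the other strand, which fell by 0.33.

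The checkpoint kinases did not pass in either direction. Atm gave -0.10 ± 0.13, Atr 0.01 ± 0.15, Chek1 0.15 ± 0.16 and Chek2 -0.11 ± 0.13 on the log2 scale, with adjusted p from 0.44 to 0.94. Atm and Atr were well counted, with 1134 to 2046 and 810 to 1268 counts per library, and their groups overlapped.

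**Figure D2:**
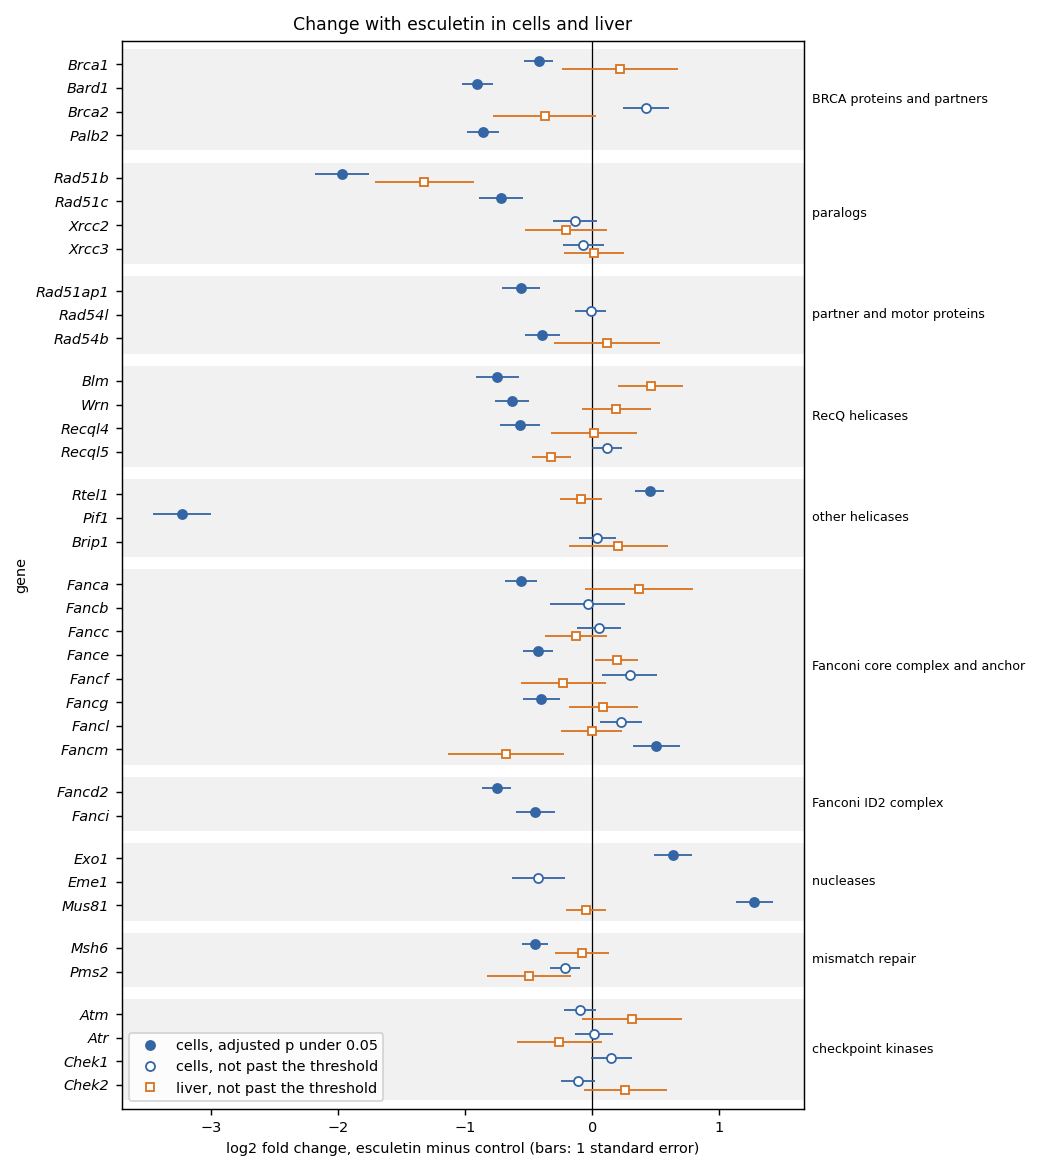
Log2 fold change of each gene with esculetin, with bars of 1 standard error, in the cells (circles, filled where adjusted p was under 0.05) and in the liver (squares, for the 25 genes tested there). In the cells 17 genes lie below and 4 above 0 with filled points, and no liver point passed.

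The other genes of these pathways were examined as lists, whose counts are to be read beside 28.7% of all tested genes that rose and 29.0% that fell. Of 31 other homologous recombination genes tested in the cells, 8 rose and 10 fell. Eme2, the other partner of MUS81, rose from 0.940 ± 0.142 to 10.1 ± 2.68 CPM (SD, n = 3), the end resection nuclease gene Mre11a fell by 0.97 on the log2 scale and the nuclease scaffold Slx4 rose by 0.80. Eme2 overlaps neighbouring genes, as do Msh3 and Ercc1, so their counts are uncertain. Of 12 other Fanconi genes, 1 rose and 5 fell. They included Ube2t, which encodes the ubiquitin-conjugating enzyme of the pathway and fell by 1.45, Mad2l2, which fell by 1.45, and Cenpx, which fell by 1.01. Of the other mismatch repair genes, Msh3 rose by 1.17 and Mlh3 by 1.40. Of 19 other checkpoint genes 3 rose and 10 fell, and Wee1, a kinase that restrains CDK1, fell by 1.64, the histone gene H2ax by 1.86 and Cdc25c by 1.61.

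Other repair routes held genes of both directions, again beside 28.7% higher and 29.0% lower over all tested genes, and nothing particular to them is read from these counts. End joining gave 5 higher and 3 lower of 13, with Parp1 down by 0.74, Poll by 1.08 and Xrcc6 by 0.46. Base excision repair gave 4 higher and 6 lower of 17, with Mbd4 (-1.16), Nthl1 (-1.27) and Xrcc1 (-0.77) among those that fell. Nucleotide excision repair gave 7 higher and 8 lower of 20, where Ercc1 rose by 2.22, Ercc6 rose by 1.04 and Gtf2h4 fell by 1.19. Of 7 translesion genes 1 rose and 4 fell, among them the polymerase genes Polh (-0.97), Poli (-0.55) and Primpol (-0.54).

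Genes of proliferation mostly fell. Of 22 replication and mitosis genes 16 fell and 1 rose, with Cdc20 down by 2.89, Aurkb by 2.34 and Ccnb1 by 1.96. Cdk1, Top2a and Mki67 fell by 1.29, 1.07 and 0.70, whereas Pcna, the sliding clamp, rose by 0.97. The groups of Mki67 overlapped, and its call was lost with DESeq2 (adjusted p = 0.080), without DMSO library 1 (0.11) and without esculetin library 2 (0.060). Of 22 regulators of cell cycle transcription 14 fell and 3 rose. E2f2, Foxm1, E2f7 and Mybl2 fell by 1.88, 1.33, 1.07 and 0.90, E2f1 rose by 0.55, and E2f8 gave -0.21 and did not pass. Among 18 p53 targets 6 rose and 6 fell, beside 28.7% and 29.0% of all tested genes: Plk2 rose by 2.67, Mdm2 by 1.77 and Cdkn1a by 0.29, and Bbc3 fell by 1.73. The Cdkn1a call was lost with scaling by library size only and without a filter (adjusted p = 0.065 and 0.062), without any DMSO library (0.086, 0.051 and 0.090) and without esculetin library 2 or 3 (0.066 and 0.094). The part of the change in proliferation genes in the change of the repair genes was not tested.

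**Figure D3:**
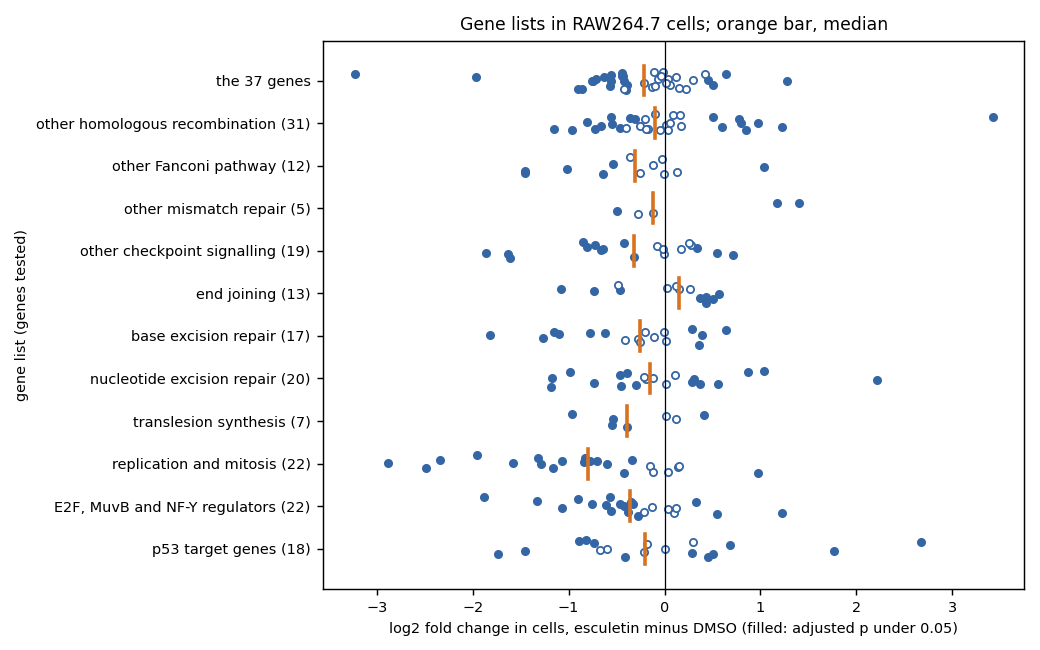
Log2 fold change with esculetin in the cells for the 37 genes and 11 other lists, 1 point per gene (filled where adjusted p was under 0.05), with an orange bar at the median of each list. The replication and mitosis list has the lowest median, -0.80, beside -0.22 for the 37 genes.

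The second comparison was made in the liver, where these genes were expressed at far lower levels. Of 37 members 25 passed the filter on low counts and 12 were not tested, and 12 had a mean below 10 counts. In control livers 16 members lay below 1 CPM. Since the tables were normalized separately, levels are only set side by side: the mean CPM was higher in DMSO cells than in vehicle livers for 36 of 37 members, with a median ratio of 17.5. Pif1 had 4, 4 and 1 counts with vehicle and 4, 1 and 3 with esculetin, Fancd2 had 1, 1 and 4 against 1, 3 and 0, and Fanci had 1, 5 and 0 against 0, 0 and 0. No difference was detectable at this depth. Mus81 was the exception in level, with 156, 225 and 211 counts with vehicle and 195, 166 and 162 with esculetin.

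None of the 25 tested members passed in the liver (edgeR; also 0 with DESeq2 and with limma-voom), where 0.0859% of 12813 genes passed, and 1 was below an unadjusted p of 0.05. That member was Rad51b, with 47, 60 and 27 counts with vehicle and 11, 22 and 15 with esculetin. Every esculetin library was below every vehicle library, with a log2 fold change of -1.32 ± 0.39 (unadjusted p = 0.0055, adjusted p = 0.34). Without the filter on low counts its adjusted p was 0.027, where 0.837% of all genes passed as lower, and over the other planned settings it ran from 0.11 to 0.92. Without vehicle library 1, which stood apart, the log2 fold change was -1.20 (adjusted p = 0.42). Among the 25 members, 13 gave fold changes below 0 and 12 above, from -1.32 to 0.46, with a median of -0.01. Groups did not overlap for 3 lower and 1 higher member, beside 7.95% and 6.52% of all genes tested. Blm was the higher one, with 35, 37 and 33 counts with vehicle and 50, 40 and 43 with esculetin, and it did not pass (log2 fold change 0.46 ± 0.26, adjusted p = 0.66).

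**Figure D4:**
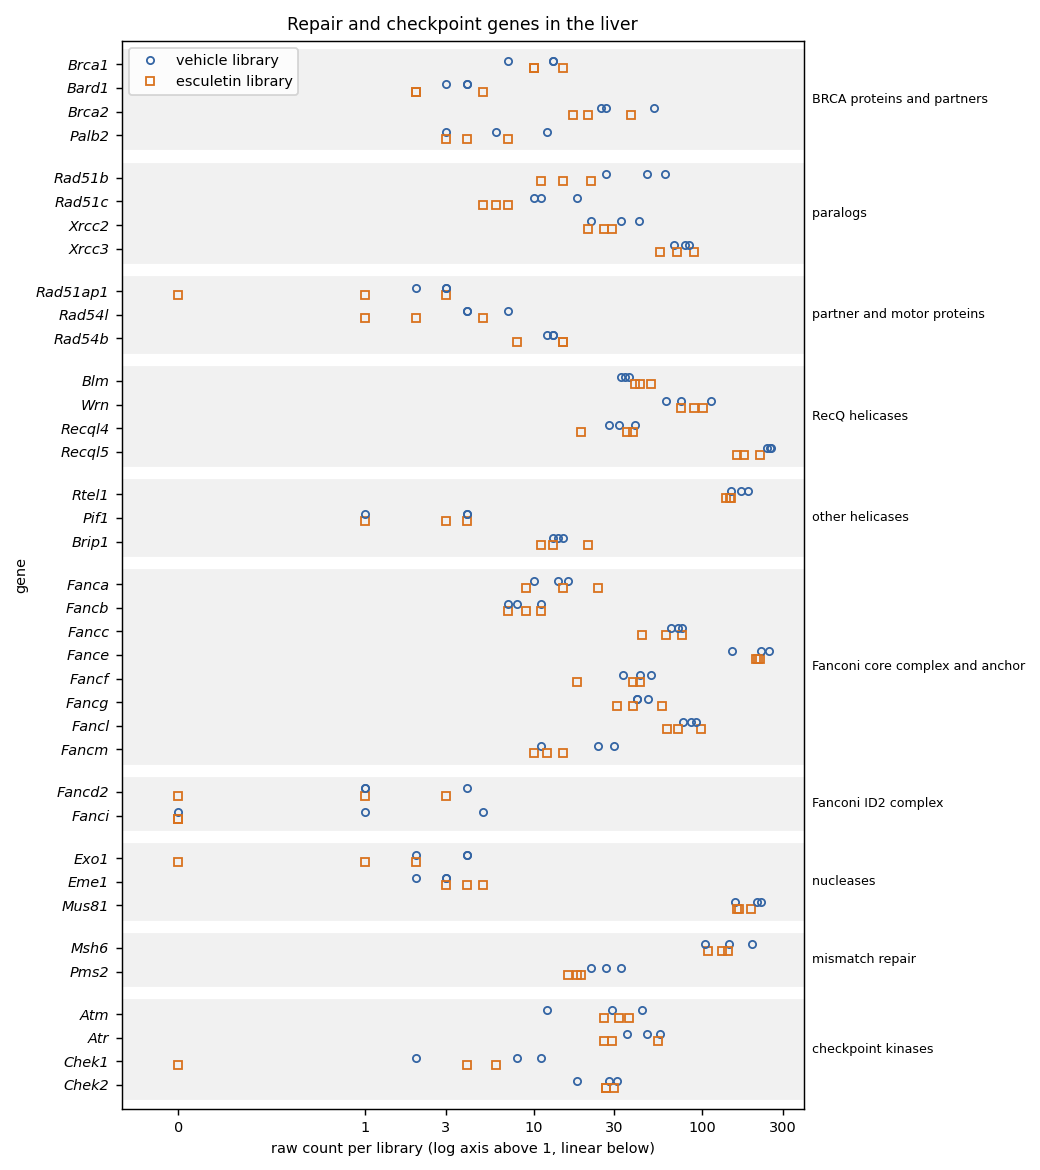
Raw counts of each gene in the 6 liver libraries (circles, vehicle; squares, esculetin; the axis is logarithmic above 1). Rad51b shows esculetin libraries at 11 to 22 and vehicle libraries at 27 to 60, and genes such as Fanci and Fancd2 lie at 5 counts or fewer.

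In the other lists none of the genes tested in the liver passed with edgeR or limma-voom. With DESeq2 2 passed, beside 0.765% of all genes tested. Of the genes of these lists 12 were below an unadjusted p of 0.05, 11 lower and 1 higher with esculetin. By list this count ran from 0 to 4, the 4 among 16 p53 targets tested. The share of all tested genes below this p is not given here, so nothing particular to the lists is read from the count. The lower ones were Gadd45a (log2 fold change -1.06), Wee1 (-1.17), Ccnb1 (-2.03), Foxm1 (-1.06), E2f2 (-0.84), Plk2 (-0.89), Bbc3 (-0.71), Dna2 (-0.53), Slx4 (-0.64), Polm (-0.65) and Ercc6 (-0.70), with the smallest adjusted p at 0.084 for Plk2. The higher one, Cdkn1a, gave 0.91 (unadjusted p = 0.0053, adjusted p = 0.33), with overlapping groups.

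The difference between the effect in the cells and that in the liver was tested in a model of all 12 libraries. It passed for 4 of 37 members, 3 with a lower and 1 with a higher effect in the cells, beside 13.7% and 13.4% of 15709 genes (27.1% in either direction). For Blm the effect in cells minus that in liver was -1.25 ± 0.29 on the log2 scale (adjusted p = 0.0049), for Mus81 1.28 ± 0.22 (adjusted p = 0.00054) and for Fance -0.66 ± 0.21 (adjusted p = 0.028). For Pif1 it was -3.21 ± 0.98 (adjusted p = 0.023), with 1 to 4 liver counts behind it. The 12 members not tested in the liver, Pif1 among them, entered this model through their counts in the cells. No differing effect is therefore read for Pif1. The Pif1 call was lost without liver esculetin library 1 or 3 (adjusted p = 0.13 and 0.084), and that of Fance without DMSO library 2 or 3, cell esculetin library 2, vehicle library 1 or liver esculetin library 2 or 3 (adjusted p from 0.056 to 0.090). Without vehicle library 3, 7 members passed. For Rad51b, lower in both comparisons, the difference of -0.67 ± 0.46 did not pass (adjusted p = 0.32).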

How the data were processed

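RNA was measured in 6 liver and 6 RAW264.7 libraries. The deposited tables hold whole-number counts for each gene, not normalized. Per the labels and the study's methods, reads were aligned with HISAT2 2.2.1 to GRCm39 and counted with featureCounts. The labels name mm10 beside GRCm39. The version of the annotation, strandedness and treatment of reads with several placements are not given in the sources used here. Symbols and positions were taken from GENCODE on GRCm39 (54749 of 55357 identifiers matched, 608 did not). RefSeq promoters were on GRCm38.p6.

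Liver and cells were analysed separately by quasi-likelihood F-tests in edgeR 4.0.16 under R 4.3.3 (filterByExpr with a minimum count of 10, TMM factors, no covariate beside treatment). Benjamini-Hochberg adjustment of two-sided p-values ran over all genes tested, with calls at an adjusted p under 0.05. Fitted fold changes use edgeR's prior count. The SE given with a fold change is its absolute value divided by the square root of the F statistic, not a fitted standard error. The difference between the cells and the liver was an interaction in a model of all 12 libraries. Alternatives included DESeq2 1.42.0 and limma 3.58.1. All replicate pairs differed beyond sampling noise. The script was tested on simulated data, where 79% of 2-fold changes were recovered in each table. False calls there numbered 7 for the cells and 16 for the liver. The changed genes were drawn only from those with a mean above 1 CPM. In control livers 16 members lay below 1 CPM, so the 79% does not describe them. Figures were drawn with matplotlib 3.10.9. The members and lists were chosen with earlier results of these data known.

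Every member was named, with fold changes in the cells for all of them and in the liver for those at an unadjusted p under 0.05; Blm and Gadd45a in the liver were added after their values were seen. From every other list up to 3 called genes with the smallest p in the cells and up to 2 genes in the liver were named, with E2f1, E2f7, E2f8, Foxm1, Mybl2, Mki67, Top2a, Pcna, Cdk1 and Cdkn1a. Values of some genes of the other lists are not reported here.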

Additional observations from a re-analysis of the deposited data

Results flagged for a closer look

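The test of the difference in the effect of esculetin between the cells and the liver passed for 4 members. The difference on the log2 scale, cells minus liver, was -1.25 for Blm, -3.21 for Pif1, -0.66 for Fance and 1.28 for Mus81. Blm and Mus81 passed in every alternative run. Fance was lost without the filter on low counts (adjusted p = 0.055) and without DMSO library 2 or 3, cell esculetin library 2, vehicle library 1 or liver esculetin library 2 or 3, where adjusted p ran from 0.056 to 0.090. Pif1 was lost without liver esculetin library 1 (adjusted p = 0.13) or 3 (adjusted p = 0.084), and its liver effect rests on 1 to 4 counts per library. It failed the filter in the liver and entered this model through its counts in the cells, so no differing effect is read for it. Cells and livers also differed in dose, route, time and diet or oxLDL, which cannot be told apart from the tissue.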

How the results depend on the processing

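In the cells, 21 members passed. Of these, 16 passed and all 21 kept their direction in each of 14 alternatives (scaling, filter, tool, replicate block and leaving out each library), and the other 5 were lost in at least 1; Brca2 and Eme1 passed in at least 1. Under the study's criterion (limma-voom, unadjusted p under 0.05 and fold over 1.5) and under an adjusted p under 0.05 with a fold over 1.5, 10 members passed, 8 lower and 2 higher. Of all tested genes 18.8% were lower and 19.2% higher under the first and 17.7% and 18.8% under the second, so the share of lower members was nearer to that of all genes than without a fold criterion. The first criterion gave 77 and the second 75 genes of the other lists, against 124, where 38%, 36.5% and 57.7% of all tested genes passed. In the liver, 1 member passed without the filter and 1 under the study's criterion. Of the other lists, 5 genes passed without the filter, 2 with DESeq2, 2 with the replicate block and 11 under the study's criterion, against 0. Under those settings, in the same order, 1.52%, 0.765%, 0.96% and 3.89% of all genes tested in the liver passed, against 0.0859%. Leaving out a library gave 17 to 21 members in the cells (14 to 18 lower, 3 to 5 higher), 0 in the liver, and 3 to 7 for the difference between them, the 7 without vehicle library 3. End joining, base excision and translesion genes that rose numbered 2 to 4, 1 to 4 and 0 to 1 when a library was left out. Without DMSO library 3 these were 2, 1 and 0.

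Members near 0 changed sign. Rad54l gave 0.0053 with RLE factors, 0.00522 with a filter at 1 CPM and 0.00508 with DESeq2 (leaving out a library, -0.111 to 0.0643). Brip1 gave -0.0254 with library size only and -0.00281 without a filter (-0.0728 to 0.148). Fancb gave 0.0317 with limma-voom under both criteria and 3.68e-05 with the replicate block (-0.283 to 0.198). Fancc gave -0.0127 with library size only (-0.0897 to 0.152). Atr gave -0.0475 with library size only, -0.0292 without a filter and -0.00717 with limma-voom under both criteria (-0.161 to 0.163). Leaving out a library gave -0.268 to 0.0219 for Xrcc3, -0.195 to 0.0534 for Atm and -0.186 to 0.0247 for Chek2. The causes were not tested.

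Whether replicate numbers pair the libraries was not settled. Same-number correlations of deviations were 0.16, -0.03 and 0.08 in the cells and 0.14, -0.01 and 0.10 in the liver. Not every library correlated best with its own number. With the replicate block Brca2 passed (adjusted p = 0.014), and 22 members passed in the cells, 0 in the liver and 5 for the difference. Of all tested genes 60.1% passed with the block in the cells, against 57.7% without it. In the liver these shares were 0.96% and 0.0859%. In the liver, 12 members were too sparse to be tested, and depth limits what could be detected there.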
